A study of Homo sapiens with 36 samples.

Results

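MIA PaCa-2 cells, which were established from a human pancreatic carcinoma, were compared with and without doxycycline for 96 h in cells that carry a doxycycline-inducible Cas9 and a guide that targets no gene (NTC in the labels). The comparison holds 6 of the 36 libraries of the study, 3 from cells given 2 µg/mL doxycycline and 3 from cells given none. All 6 were grown in RPMI with serum free of tetracycline, and all 6 carry the same Cas9 and guide, so the libraries differ in the labels only by the drug. The remaining libraries are the same line at 48 h and lines with a guide against PELO or HBS1L, each with and without the drug at both times. The labels do not say whether the lines are clones or pools, or whether the 3 libraries of a group came from separate cultures. The p-values therefore measure only the spread between libraries of a group, estimated over all 36 libraries. The design has no cells that received doxycycline without Cas9, so the drug, the induction of Cas9 with its guide and any other difference between the cultures cannot be told apart.

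Doxycycline is a tetracycline antibiotic that blocks the small subunit of bacterial ribosomes and can also slow translation by mitochondrial ribosomes, which descend from bacterial ones. In inducible systems it is used as a switch, because a tetracycline-responsive activator turns on the transgene when the drug is bound. A non-targeting guide loads Cas9 without directing it to a gene. This line is therefore the control for the drug and the induced nuclease in the other lines, but not for cutting at a target gene.

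The 6 libraries held 59851759, 61385019 and 61813630 counts with doxycycline and 62618750, 50168973 and 58199641 counts without. Of 61544 genes, 20767 passed the filter on low counts. The first principal component of the 6 libraries took 33.9% of the variance and set the doxycycline libraries (-14.9, -6.76 and -32.7) apart from the others (21.6, 25.99 and 6.83). The third library of each group stood farthest from the other two of its group (chi-square per degree of freedom 13.4 and 14.1 with doxycycline and 14.9 and 19.1 without, against 4.33 and 4.03 for the remaining pair). No pair agreed within sampling noise, so none was taken as a library deposited more than once. KRT8, KRT18 and KRT19, keratins of simple epithelia, were well expressed, whereas EPCAM and CDH1, which also mark epithelia, had at most 2 counts in any of the 6 libraries. Of 9 fibroblast markers 6 had at most 10 counts in every library, as had 5 of 8 leukocyte, 5 of 7 endothelial and 9 of 10 acinar and endocrine markers. Of the leukocyte markers PTPRC and CD3E had at most 1 count, while ITGAM, CD14 and CD68 had more than 10 in every library. The 2 genes that guides target elsewhere in the study did not pass the test here: HBS1L had 149, 149 and 147 CPM with doxycycline and 140.4, 144 and 144 CPM without (log2 fold change 0.06 ± 0.03, adjusted p = 0.289). PELO had 26.9, 25.7 and 27.3 CPM with doxycycline and 26.9, 27.9 and 28.3 CPM without (log2 fold change -0.05 ± 0.05, adjusted p = 0.598).

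Doxycycline was followed by many small differences at 96 h. Of the 20767 genes tested, 1561 (7.52%) passed an adjusted p of 0.05 by edgeR's quasi-likelihood test, 808 higher (3.89%) and 753 lower (3.63%) with the drug. The split depended on the scaling, with 490 higher and 1009 lower under upper quartile factors, which moved the median of all genes to a log2 change of -0.03 from 0.00022. Most changes were small: the median size was a log2 change of 0.20 among the genes that rose (1.15-fold) and 0.36 among those that fell (1.28-fold). Only 88 of the called genes (0.424% of those tested) reached 2-fold, 18 higher and 70 lower, and only 13 of these had a mean of at least 1 CPM (counts scaled to library size). The 3 doxycycline libraries lay entirely on one side of the other 3 for 1438 of the 1561 called genes and for 24.7% of all genes tested. The number of calls leaned on single libraries, with 949 without the first and 522 without the third doxycycline library, 654 without the first and 491 without the second untreated library, and 2100 without the third untreated library.

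**Figure D1:**
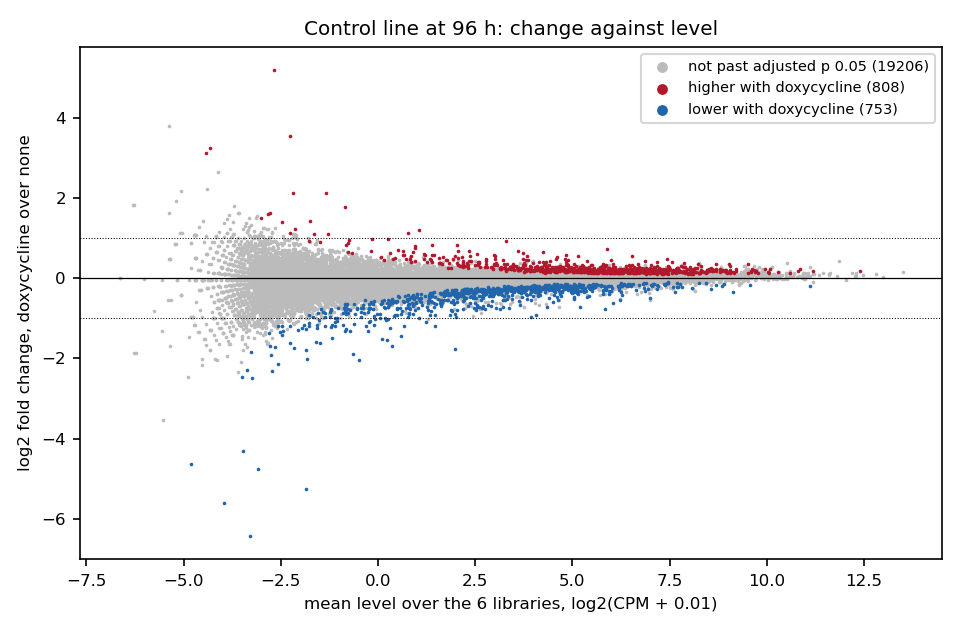
Log2 fold change with doxycycline over none (vertical) against the mean level of the gene over the 6 libraries of the control line at 96 h in log2(CPM + 0.01) (horizontal), 1 point per gene tested; dotted lines mark 2-fold. The 808 genes that rose sit mostly at higher levels than the 753 that fell.

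The genes that rose and those that fell differed in level and in kind. The median level was 54.1 CPM for the genes that rose and 7.49 CPM for those that fell (CPM is not corrected for transcript length). Among the 2234 genes of at least 100 CPM, 240 rose (10.7%) and 37 fell (1.66%), whereas among the 4374 genes between 1 and 10 CPM 99 rose (2.26%) and 316 fell (7.22%). The shares over all genes tested that are set beside the gene lists below are not matched for level. Protein-coding genes took 772 of the rises and 616 of the falls (13925 tested). Among noncoding classes, 4 antisense genes rose and 30 fell of 1524, 5 lincRNA genes rose and 33 fell of 1168, and 1 transcribed unprocessed pseudogene rose and 20 fell of 335. Processed pseudogenes had 6 rises and 5 falls among 1280, sense intronic genes 2 and 1 among 215 and snoRNA genes 1 and 1 among 199. Processed transcripts had 1 rise and 17 falls among 319. Of these classes the transcribed unprocessed pseudogenes (5.97%), the processed transcripts (5.33%) and the protein-coding genes (4.42%) had larger shares of falls than all genes tested (3.63%). By chromosome, 35 genes of chromosome 18 rose and 5 fell of 295 tested, and on chromosome 4 the numbers were 47 and 8 of 646. The gene-dense chromosome 19 went the other way, with 17 rises and 100 falls among 1474 genes, and chromosome 16 had 11 and 53 among 1015.

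GC content of the transcript moved with the direction. In the quintile of genes with the lowest GC content (23.1% to 41.5%) 354 rose and 73 fell, and in the quintile with the highest (58.3% to 87.9%) 46 rose and 250 fell. The libraries themselves differed along GC content. In the lowest quintile, the median log2 deviation from the mean of the 6 libraries was 0.025, 0.031 and 0.035 with doxycycline and -0.032, -0.046 and -0.0076 without. In the highest quintile it was -0.024, -0.026 and 0.016 with doxycycline and 0.018, 0.031 and -0.012 without, so the third library of each group sat on the side of the other group. With a GC offset in the fit, 1486 genes were called, 698 higher and 788 lower, and 1228 of them were among the 1561. The part of the library composition in single calls was not tested beyond this offset.

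**Figure D2:**
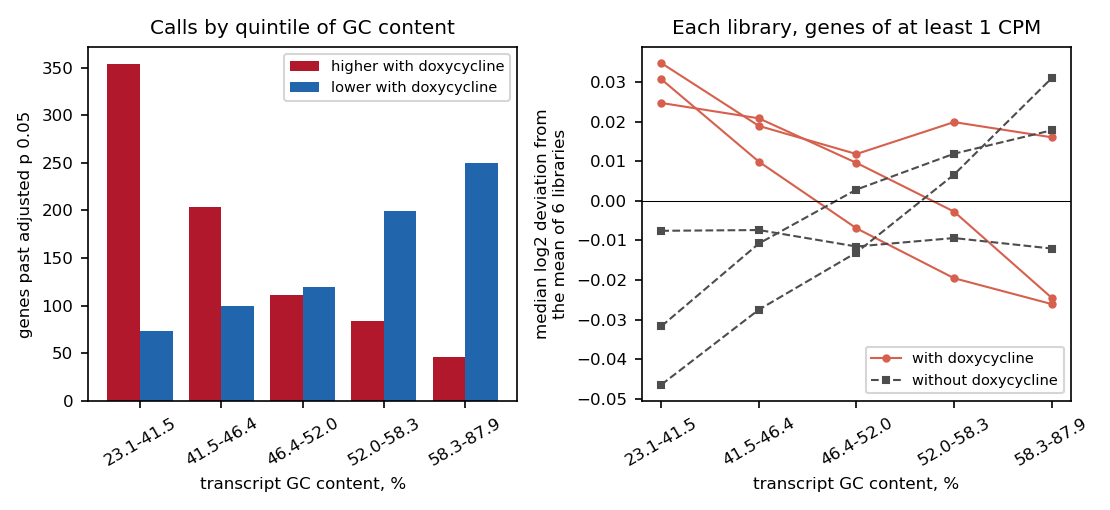
Left, number of genes higher and lower with doxycycline at 96 h in the control line in each quintile of transcript GC content (%). Right, for each of the 6 libraries, the median log2 deviation from the mean of the 6 libraries over genes of at least 1 CPM in the same quintiles; the rises pass from 354 to 46 and the falls from 73 to 250 from the lowest to the highest quintile.

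The 12 largest rises and falls were taken among called genes of at least 1 CPM whose groups did not overlap. The rises included signalling enzymes, cytokines and matrix genes. PIK3CG, the catalytic subunit of phosphoinositide 3-kinase gamma (ENSG00000105851.11, GRCh38 chromosome 7, 106865278 to 106907145 on the plus strand), had 2.71, 2.99 and 2.897 CPM with doxycycline and 1.44, 1.17 and 1.14 CPM without. IL1B, the cytokine interleukin 1 beta (ENSG00000125538.12, GRCh38 chromosome 2, 112829751 to 112836903 on the minus strand), had 1.97, 2.63 and 2.41 CPM with doxycycline and 1.02, 1.11 and 1.09 CPM without. Both genes were higher in every doxycycline library, and they were the only 2 rises past 2-fold at this level (log2 fold change 1.19 ± 0.14, adjusted p = 7.60e-07 for PIK3CG and log2 fold change 1.13 ± 0.14, adjusted p = 6.37e-07 for IL1B). MMP3, the secreted protease stromelysin, had 1.503, 1.397 and 1.81 CPM with doxycycline and 0.857, 0.832 and 0.719 CPM without (log2 fold change 0.96 ± 0.18, adjusted p = 0.000846). MAP1B, which binds microtubules, had 13.9, 12.4 and 12.03 CPM with doxycycline and 7.27, 6.18 and 6.800 CPM without (log2 fold change 0.91 ± 0.13, adjusted p = 4.04e-05). For neither gene did the groups overlap, as the choice of this set required.

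GLUL, the glutamine synthetase, had 5.04, 4.79 and 6.0 CPM with doxycycline and 2.51, 2.61 and 3.73 CPM without. APLN, which encodes the secreted peptide apelin, had 4.15, 2.88 and 3.12 CPM with doxycycline and 2.11, 1.82 and 1.72 CPM without. The third untreated library was the highest of its group for GLUL and the first doxycycline library the highest for APLN. The log2 fold changes were 0.84 ± 0.11 (adjusted p = 5.45e-06) for GLUL and 0.84 ± 0.14 (adjusted p = 8.97e-05) for APLN. AFF3, a nuclear protein of the AF4 family, had 2.25, 2.66 and 2.47 CPM with doxycycline and 1.54, 1.21 and 1.49 CPM without (log2 fold change 0.79 ± 0.15, adjusted p = 0.000706). IGFBP1, a secreted carrier of insulin-like growth factors, had 2.59, 2.296 and 2.38 CPM with doxycycline and 1.41, 1.49 and 1.44 CPM without (log2 fold change 0.75 ± 0.12, adjusted p = 7.25e-05). The remaining rises of this set were SPOCK1, a proteoglycan gene, at 1.59, 1.93 and 1.69 CPM with doxycycline and 0.905, 1.39 and 0.964 CPM without (log2 fold change 0.70 ± 0.18, adjusted p = 0.0131), and FAM241A and KIAA1549L, whose log2 fold changes were 0.68 and 0.68. SPOCK1 lost its call without the first untreated library.

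The rise with the smallest adjusted p was that of CLDN1, which encodes claudin-1, a strand-forming protein of tight junctions (ENSG00000163347.6, GRCh38 chromosome 3, 190305701 to 190322475 on the minus strand). It had 73.8, 73.1 and 75.8 CPM with doxycycline and 45.2, 44.2 and 45.7 CPM without, so that the 2 groups were far apart and each was tight. The log2 fold change was 0.72 (adjusted p = 3.08e-13). VEPH1 followed with 42.1, 41.2 and 43.1 CPM with doxycycline and 29.8, 27.9 and 28.8 CPM without (log2 fold change 0.55 ± 0.05, adjusted p = 2.91e-10). NEDD4L, a ubiquitin ligase that removes sodium channels from the membrane, had 33.4, 31.3 and 33.7 CPM with doxycycline and 24.6, 22.1 and 23.9 CPM without (log2 fold change 0.48 ± 0.05, adjusted p = 3.48e-08). CD59, a surface inhibitor of complement, had 127, 127 and 147 CPM with doxycycline and 96.3, 96.8 and 105 CPM without. ROBO4, a roundabout receptor, had 27.4, 28.7 and 29.97 CPM with doxycycline and 20.1, 19.7 and 19.7 CPM without. The groups did not overlap for any of these 5 genes.

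The largest falls were deeper than the largest rises and sat at low levels. ANK3, ankyrin-G, which anchors membrane proteins to the spectrin skeleton (ENSG00000151150.22, GRCh38 chromosome 10, 60026298 to 60733490 on the minus strand), had 2.25, 1.56 and 1.55 CPM with doxycycline and 6.54, 5.66 and 5.89 CPM without. SRPX, a sushi-repeat protein gene on chromosome X, had 0.553, 0.665 and 0.569 CPM with doxycycline and 1.84, 1.86 and 2.103 CPM without. PEG10, an imprinted gene derived from a retrotransposon, had 0.674, 0.499 and 0.621 CPM with doxycycline and 1.75, 1.802 and 1.66 CPM without. In all 3 genes each doxycycline library lay below every untreated one, as the choice of these falls required. The log2 fold changes were -1.76, -1.69 and -1.54 (adjusted p = 3.84e-11, 2.85e-09 and 4.47e-07). PRODH, the proline dehydrogenase of mitochondria, had 0.691, 0.915 and 0.621 CPM with doxycycline and 1.37, 1.78 and 1.45 CPM without (log2 fold change -1.03 ± 0.17, adjusted p = 0.000114). ANKEF1 had a log2 fold change of -1.20, ZDHHC11B of -1.01 and C20orf204 of -1.0.

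Some of the 12 falls are less certain. PDIA2, a protein disulfide isomerase best known from pancreas, had 1.52, 2.56 and 0.914 CPM with doxycycline and 3.81, 5.03 and 2.73 CPM without (log2 fold change -1.19 ± 0.31, adjusted p = 0.01804). PAQR6, a membrane progestin receptor, had 1.38, 2.28 and 0.8104 CPM with doxycycline and 3.24, 4.001 and 2.44 CPM without (log2 fold change -1.10 ± 0.30, adjusted p = 0.0272). In both genes the libraries ran parallel within the groups, the second of each group being the highest and the third the lowest, and both calls were lost when only the 6 libraries were fitted. PHKA2-AS1 (log2 fold change -1.52 ± 0.22, adjusted p = 1.55e-05) shares 64.2% of its exonic length with other genes, so its reads may include theirs. ENSG00000287864, which has no symbol in the files used, had 0.605, 1.23 and 0.569 CPM with doxycycline and 2.73, 2.26 and 1.56 CPM without (log2 fold change -1.44 ± 0.23, adjusted p = 0.0001005).

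**Figure D3:**
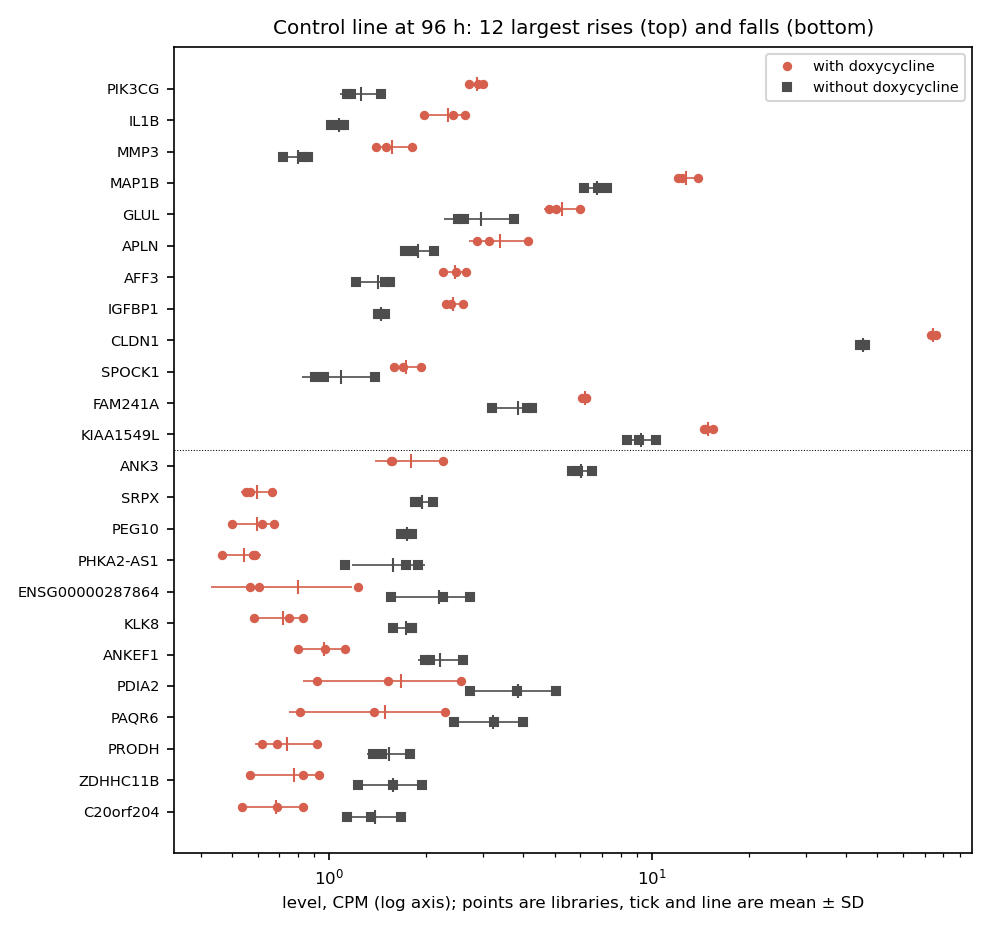
Level of the 12 largest rises (top) and 12 largest falls (bottom) in each of the 6 libraries of the control line at 96 h, in CPM on a log axis; circles are libraries with doxycycline and squares without, with mean ± SD (n = 3). No gene has overlapping groups, which the choice of these genes required, and PDIA2 and PAQR6 show the widest spread.

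Kallikrein genes of chromosome 19, a cluster of secreted serine proteases, were mostly lower. KLK6 (ENSG00000167755.15, GRCh38 chromosome 19, 50958631 to 50969673 on the minus strand) had 42.2, 40.5 and 43.8 CPM with doxycycline and 69.5, 74.7 and 72.2 CPM without, and its fall had the same adjusted p as the rise of CLDN1 (log2 fold change -0.77 ± 0.05, adjusted p = 3.08e-13). KLK8 had 0.829, 0.749 and 0.586 CPM with doxycycline and 1.57, 1.802 and 1.81 CPM without (log2 fold change -1.25 ± 0.15, adjusted p = 6.36e-07), although 40.1% of its exonic length overlaps other genes. Because these 2 neighbours were named, the other kallikrein genes that were tested were looked up after their values had been seen. KLK5 averaged 2.73 ± 0.394 CPM with doxycycline and 5.105 ± 0.304 CPM without (log2 fold change -0.90 ± 0.11, adjusted p = 1.84e-06), KLK7 averaged 3.37 ± 0.297 CPM with doxycycline and 5.699 ± 0.2897 CPM without (log2 fold change -0.76 ± 0.09, adjusted p = 8.52e-07) and KLK10 averaged 0.624 ± 0.122 CPM with doxycycline and 1.05 ± 0.153 CPM without (log2 fold change -0.74 ± 0.23, adjusted p = 0.0417). KLK13 and KLK14, both with at most 9 counts in any library, had log2 fold changes of -0.66 and -0.83 and did not pass the test. At 48 h KLK7 had a log2 change of 0.36 (adjusted p = 0.00208), while KLK5, KLK6, KLK8 and KLK10 did not pass the test.

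KRT15, a keratin of basal epidermal cells, fell, with 10.4, 12.7 and 11.8 CPM with doxycycline and 22.4, 23.7 and 19.8 CPM without (log2 fold change -0.92 ± 0.09, adjusted p = 3.34e-08). FLG and CRNN, genes of squamous epithelia, were picked after their values were seen. FLG, filaggrin, which bundles keratin, averaged 0.278 ± 0.136 CPM with doxycycline and 1.14 ± 0.0951 CPM without (log2 fold change -2.03 ± 0.36, adjusted p = 0.000575). CRNN, cornulin, which lies near FLG on chromosome 1, had 0, 0 and 2 counts with doxycycline and 34, 32 and 22 without (adjusted p = 2.79e-07). Of the simple keratins, KRT8 averaged 1907 ± 127 CPM with doxycycline and 1689 ± 21.04 CPM without (log2 fold change 0.18 ± 0.06, adjusted p = 0.0491) and KRT18 averaged 1735 ± 69.1 CPM with doxycycline and 1590.1 ± 40.2 CPM without (log2 fold change 0.13 ± 0.05, adjusted p = 0.143). TCF7, a transcription factor of the Wnt pathway, had 53.5, 54.03 and 48.9 CPM with doxycycline and 81.1, 80.3 and 78.9 CPM without (log2 fold change -0.62 ± 0.05, adjusted p = 2.91e-10), with the third doxycycline library the lowest.

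A few genes were near the floor in one group, and for these counts are given in place of a fold change. They were chosen after their values were seen, as called genes under 1 CPM with the largest fitted changes. KCNS1, a potassium channel subunit gene, had 0 counts in all 3 doxycycline libraries and 13, 7 and 12 in the untreated ones. ZPBP2 had 0 with doxycycline and 3, 8 and 7 without, and TMEFF2 had 0, 1 and 0 with doxycycline and 14, 11 and 11 without. In the other direction MOBP, a myelin protein gene, had 23, 13 and 15 counts with doxycycline and 1, 0 and 0 without. COL10A1, the collagen of hypertrophic cartilage, had 23, 14 and 27 with doxycycline and 1, 2 and 2 without.

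Interferon-stimulated genes, which cells switch on through STAT and IRF factors to block viruses, fell more often than they rose. Of 40 tested, 6 fell and 0 rose (15 and 2 at an unadjusted p under 0.05, 8 and 2 by DESeq2). The falls were 15% of the list, against 3.63% of all genes tested. The list's median log2 fold change was -0.19 against 0.00022 over all genes tested. The summed level was 1098 to 1153 CPM with doxycycline against 1202 to 1234 CPM without. BST2, which tethers budding virus particles to the membrane, had 5.15, 5.96 and 6.104 CPM with doxycycline and 9.13, 9.88 and 8.73 CPM without (log2 fold change -0.69 ± 0.08, adjusted p = 2.93e-07). IFIT2, which binds viral RNA, had 61.7, 68.7 and 67.3 CPM with doxycycline and 80.6, 82.8 and 80.5 CPM without (log2 fold change -0.30 ± 0.05, adjusted p = 0.000194). OASL, of the oligoadenylate synthetase family, had 3.04, 4.67 and 4.72 CPM with doxycycline and 5.64, 7.65 and 7.501 CPM without (log2 fold change -0.73 ± 0.18, adjusted p = 0.0124). The doxycycline libraries were the lower ones throughout, the first of them the lowest for all 3 genes. IFIT1 averaged 33.1 ± 2.16 CPM with doxycycline and 38.1 ± 0.956 CPM without, IRF9, a DNA-binding subunit of the interferon-activated factor ISGF3, averaged 4.25 ± 0.237 CPM with doxycycline and 5.09 ± 0.193 CPM without, and IFI44 averaged 0.1303 ± 0.0681 CPM with doxycycline and 0.327 ± 0.0775 CPM without. The count of falls ranged from 2 to 7 when single libraries were left out, and it was 3 with only the 6 libraries fitted and 10 under upper quartile factors.

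Promoters of these genes are shown because many genes of the family, though not all, share a sequence element. RefSeq promoters on GRCh38.p14 (250 bases before the start, gene strand) were in hand for 4 of the 6 genes that fell, and 3 of the 4 held the core of the interferon response element, searched on both strands as GAAA, any 2 bases and GAAA again. The same letters occur in 3.02% of 35116 promoters of that length. Capitals mark the matches on either strand, and the 2 matches of BST2 overlap. IRF9 held no match, and a match is a description of the letters only.
BST2, chr19:17405631-17405880, minus strand: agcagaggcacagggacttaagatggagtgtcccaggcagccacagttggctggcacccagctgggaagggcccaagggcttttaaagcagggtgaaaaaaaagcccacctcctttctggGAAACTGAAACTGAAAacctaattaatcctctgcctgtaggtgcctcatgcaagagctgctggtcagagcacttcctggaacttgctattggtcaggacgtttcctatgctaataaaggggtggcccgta
IFIT1, chr10:89392373-89392622, plus strand: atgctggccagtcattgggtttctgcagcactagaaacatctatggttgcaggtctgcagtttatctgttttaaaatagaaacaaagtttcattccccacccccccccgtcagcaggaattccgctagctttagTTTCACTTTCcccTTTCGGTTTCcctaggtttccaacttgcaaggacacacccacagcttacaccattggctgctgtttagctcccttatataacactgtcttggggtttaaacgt
IFI44, chr1:78649539-78649788, plus strand: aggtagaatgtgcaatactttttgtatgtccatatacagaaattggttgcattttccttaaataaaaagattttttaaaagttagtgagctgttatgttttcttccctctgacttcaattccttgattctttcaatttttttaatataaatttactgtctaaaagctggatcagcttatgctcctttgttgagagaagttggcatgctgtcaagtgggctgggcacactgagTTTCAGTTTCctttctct

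Cytokine and NF-kB target genes, which respond to the RELA and RELB transcription factors, rose more often than they fell. Of 25 tested, 7 rose (28%) and 1 fell (4%), with a median log2 fold change of 0.10. Over all genes tested 3.89% rose and 3.63% fell. CXCL8, the neutrophil chemokine interleukin 8, had 103, 106 and 119.7 CPM with doxycycline and 72.2, 68.6 and 84.2 CPM without (log2 fold change 0.55 ± 0.09, adjusted p = 0.000326). RELB, an NF-kB subunit, had 21.8, 21.5 and 23.1 CPM with doxycycline and 18.3, 19.1 and 17.9 CPM without (log2 fold change 0.27 ± 0.05, adjusted p = 0.00113). BIRC3, an inhibitor of apoptosis, had 26.3, 28.7 and 24.7 CPM with doxycycline and 22.7, 21.99 and 21.9 CPM without (log2 fold change 0.26 ± 0.06, adjusted p = 0.00356). The groups were apart in each of them, with the third doxycycline library the highest for CXCL8 and RELB. NFKB1 averaged 56.3 ± 1.53 CPM with doxycycline and 49.5 ± 2.59 CPM without, NFKBIA, the inhibitor of NF-kB, averaged 59.9 ± 1.21 CPM with doxycycline and 53.4 ± 1.23 CPM without, and TRAF1 averaged 12.5 ± 0.102 CPM with doxycycline and 9.74 ± 1.02 CPM without. The fall was that of IL11, at 0.618 ± 0.121 CPM with doxycycline and 1.06 ± 0.105 CPM without (log2 fold change -0.78 ± 0.19, adjusted p = 0.00911).

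Genes of the RAS-MAPK output, most of them feedback inhibitors or growth factors induced by ERK, had 6 rises and 0 falls among 22 (9 and 1 at an unadjusted p under 0.05, 6 and 0 by DESeq2, median 0.10). The rises were 27.3% of the list, against 3.89% of all genes tested. DUSP5, a nuclear phosphatase of ERK, had 15.9, 15.3 and 17.2 CPM with doxycycline and 11.7, 9.05 and 10.3 CPM without (log2 fold change 0.64 ± 0.07, adjusted p = 4.47e-07). DUSP6, its cytoplasmic counterpart, had 15.8, 15.1 and 17.4 CPM with doxycycline and 11.9, 11.9 and 11.5 CPM without (log2 fold change 0.45 ± 0.07, adjusted p = 0.0001104), with 40.5% of its exonic length shared with other genes, and DUSP1 had 26.6, 25.4 and 27.9 CPM with doxycycline and 21.8, 22.9 and 21.4 CPM without (log2 fold change 0.27 ± 0.05, adjusted p = 0.000418). All 3 phosphatase genes were higher in every doxycycline library. SPRED1, a brake on RAF, and EREG and HBEGF, ligands of the EGF receptor family, made up the rest with log2 fold changes of 0.20, 0.18 and 0.24. Immediate early genes rose in 3 of 25 cases, FOSL1 (0.17), KLF4 (0.23) and KLF6 (0.17), and none fell.

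Promoters were also searched for the AP-1 element, TGANTCA on both strands, in 17 called genes of the cytokine, immediate early, RAS-MAPK and matrix lists. It was found in 3 of them, CXCL8, IL11 and PLAUR, and in 6.57% of all promoters of this length. The remaining called genes of these lists, among them RELB, FOSL1, DUSP5 and MMP3, were not searched. The promoters of CXCL8, a rise, and IL11, the fall of the cytokine list, are shown with the element in capitals, which starts 137 and 96 bases before the start of transcription.
CXCL8, chr4:73740319-73740568, plus strand: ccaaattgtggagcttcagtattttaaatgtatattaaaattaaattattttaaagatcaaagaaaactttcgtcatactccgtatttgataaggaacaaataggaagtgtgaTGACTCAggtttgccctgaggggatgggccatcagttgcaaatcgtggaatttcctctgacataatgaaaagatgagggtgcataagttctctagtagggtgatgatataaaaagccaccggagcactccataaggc
IL11, chr19:55370464-55370713, minus strand: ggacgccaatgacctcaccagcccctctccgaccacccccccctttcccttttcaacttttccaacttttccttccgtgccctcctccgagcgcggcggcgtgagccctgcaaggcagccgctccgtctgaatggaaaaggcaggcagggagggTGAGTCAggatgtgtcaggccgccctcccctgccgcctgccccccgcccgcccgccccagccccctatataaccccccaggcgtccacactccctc

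Targets of YAP and TEAD, the transcription factors of the Hippo pathway, had 5 rises and 0 falls among 24 genes (13 and 0 at an unadjusted p under 0.05, 6 and 0 by DESeq2, median 0.14). The rises were 20.8% of the list, against 3.89% of all genes tested. CCN1, a secreted matrix-associated protein, had 208, 199.6 and 192 CPM with doxycycline and 146, 138 and 144 CPM without (log2 fold change 0.49 ± 0.05, adjusted p = 2.58e-07). AXL, a receptor tyrosine kinase, had 159.8, 158 and 165 CPM with doxycycline and 132, 124 and 132 CPM without (log2 fold change 0.31 ± 0.04, adjusted p = 3.20e-06). NT5E, the surface enzyme CD73, had 420.3, 418 and 449 CPM with doxycycline and 372, 361 and 377 CPM without (log2 fold change 0.22 ± 0.04, adjusted p = 0.0001401). Their groups did not overlap. NUAK2 averaged 9.36 ± 0.598 CPM with doxycycline and 7.16 ± 0.482 CPM without, and IGFBP3 was called on 5, 6 and 2 counts with doxycycline and 0, 0 and 1 without. Promoters of 4 of the 5 called genes, all but CCN1, were searched for the TEAD element, GGAATG on both strands. Only that of NUAK2 held it, as did 11.9% of all promoters of 250 bases.

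**Figure D4:**
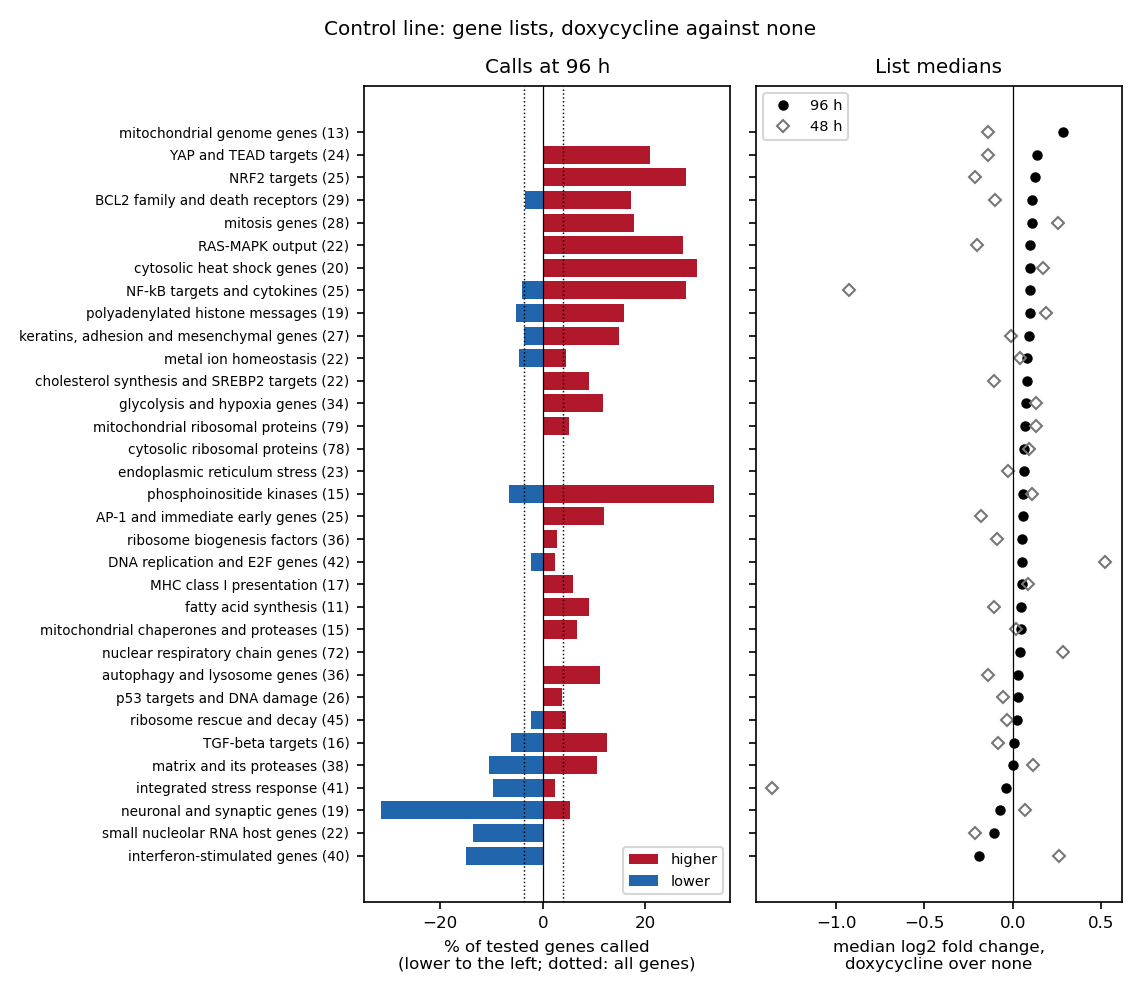
Left, percent of the tested genes of each of 33 lists (number in brackets) that were higher (right of zero) or lower (left of zero) with doxycycline at 96 h in the control line; dotted lines give 3.89% and 3.63% over all genes. Right, the median log2 fold change of each list at 96 h (filled circles) and at 48 h (open diamonds); the integrated stress response and the NF-kB targets lie far to the left at 48 h and near zero at 96 h.

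Genes of the oxidative and protein stress responses held small rises. Among 25 targets of NRF2, the factor that induces antioxidant enzymes, 7 rose and 0 fell (13 and 1 at an unadjusted p under 0.05, 8 and 0 by DESeq2, median 0.13). The rises were 28% of the list, against 3.89% of all genes tested. AKR1C1, an aldo-keto reductase, had 212, 197 and 236 CPM with doxycycline and 159, 161 and 167 CPM without (log2 fold change 0.41 ± 0.06, adjusted p = 5.45e-06). HMOX1, heme oxygenase 1, had 20.7, 20.2 and 23.6 CPM with doxycycline and 18.4, 16.3 and 16.9 CPM without (log2 fold change 0.32 ± 0.07, adjusted p = 0.00404). AKR1C2 had a log2 fold change of 0.32, and as a near copy of AKR1C1 it may share reads with it. Of 20 cytosolic heat shock genes, which refold proteins, 6 rose and 0 fell (11 and 0 at an unadjusted p under 0.05, 9 and 0 by DESeq2, median 0.10), with DNAJB1 at 485, 448 and 513 CPM with doxycycline and 416, 404 and 422 CPM without (log2 fold change 0.22 ± 0.05, adjusted p = 0.01101). HSPA1A (0.26) and HSPA1B (0.26) encode the same protein from nearly identical genes, and their counts may be split between them. The heat shock rises were 30% of that list, and their count ranged from 1 to 9 when single libraries were left out. The NRF2 and heat shock lists were not matched for level, and 10.7% of all genes of at least 100 CPM rose. None of 23 endoplasmic reticulum stress genes was called by edgeR, while 7 were higher and 2 lower at an unadjusted p under 0.05 and DESeq2 called 2.

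Genes of the integrated stress response, which ATF4 induces when initiation factor eIF2 is phosphorylated, had 1 rise and 4 falls among 41 (median -0.04). These were 2.44% and 9.76% of the list, against 3.89% and 3.63% of all genes tested. CEBPB, a partner of ATF4, rose, with 63.9, 62.6 and 70.1 CPM with doxycycline and 57.6, 59.5 and 58.5 CPM without (log2 fold change 0.16 ± 0.05, adjusted p = 0.03202). WARS1, the tryptophanyl-tRNA synthetase, fell, with 375, 395 and 400.4 CPM with doxycycline and 434, 441 and 439 CPM without (log2 fold change -0.17 ± 0.04, adjusted p = 0.00556). CBS, the first enzyme of transsulfuration, fell, with 72.1, 78.7 and 75.8 CPM with doxycycline and 83.5, 87.98 and 80.2 CPM without (log2 fold change -0.15 ± 0.04, adjusted p = 0.01298). ALDH1L2 and NUPR1 were the other falls, at 1.53 ± 0.0751 CPM with doxycycline and 2.13 ± 0.162 CPM without and 2.199 ± 0.403 CPM with doxycycline and 2.89 ± 0.341 CPM without. At 48 h 40 of the 41 genes were lower with doxycycline and 0 higher (median -1.36). Of all genes tested 16% were lower and 19% higher at that time. The response differed between the times for 40 of the 41, against 26.5% of all genes tested.

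Because the drug can act on mitochondrial ribosomes, the mitochondrial genes are described in full. The 13 protein-coding genes of the mitochondrial genome, which encode respiratory chain subunits, summed to 9748, 10999.8 and 11410.1 CPM with doxycycline and to 6767, 6277 and 13236 CPM without. The first 2 untreated libraries were the lowest of the 6 and the third was the highest, so the groups overlapped. None of the 13 was called by edgeR or DESeq2, with a median log2 fold change of 0.29 and 2 higher at an unadjusted p under 0.05, and 12 were called higher when the third untreated library was left out. The share of all counts on the mitochondrial genome was 1.32%, 1.51% and 1.61% with doxycycline and 0.960%, 0.922% and 1.78% without. None of 72 nuclear genes of the respiratory chain was called (median 0.04; 4 higher and 1 lower at an unadjusted p under 0.05, 1 higher by DESeq2), whereas at 48 h 57 of them were higher. At that time 19% of all genes tested were higher.

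Mitochondrial ribosomal protein genes had 4 rises and 0 falls among 79 (23 and 0 at an unadjusted p under 0.05, 5 and 0 by DESeq2, median 0.07), a share near that over all genes. MRPS30 had 142, 141 and 154 CPM with doxycycline and 123, 124 and 133 CPM without (log2 fold change 0.20 ± 0.04, adjusted p = 0.00163). MRPL17 had 56.4, 50.8 and 58.2 CPM with doxycycline and 45.5, 48.2 and 49.5 CPM without (log2 fold change 0.21 ± 0.06, adjusted p = 0.0282). MRPL34 (0.22) and MRPS23 (0.16) were the other 2. Of 15 mitochondrial chaperone and protease genes, HTRA2, a protease of the intermembrane space, rose, with 49.95, 50.8 and 56.6 CPM with doxycycline and 45.6, 46.3 and 48.5 CPM without (log2 fold change 0.16 ± 0.05, adjusted p = 0.0381). None of the 78 cytosolic ribosomal protein genes was called by edgeR's test (median 0.07), with 5 higher and 1 lower at an unadjusted p under 0.05, and DESeq2 called 0. Of 36 ribosome biogenesis factors edgeR's test called 1, UTP15, at an adjusted p at the threshold (log2 fold change 0.14 ± 0.05, adjusted p = 0.0495). In that list 10 were higher and 1 lower at an unadjusted p under 0.05, and DESeq2 called 6 higher.

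Among cell cycle genes, those of mitosis held small rises, 17.9% of the list against 3.89% of all genes tested. Of all genes of at least 100 CPM 10.7% rose, and the list was not matched for level. Of 28 mitosis genes 5 rose and 0 fell (13 and 1 at an unadjusted p under 0.05, 5 and 0 by DESeq2, median 0.11). CCNA2, cyclin A2, had 147, 141 and 158 CPM with doxycycline and 126, 121 and 128 CPM without (log2 fold change 0.25 ± 0.05, adjusted p = 0.00192). UBE2C, the ubiquitin-conjugating enzyme of the anaphase-promoting complex, had 199.5, 183 and 195 CPM with doxycycline and 164, 168 and 169.5 CPM without (log2 fold change 0.20 ± 0.05, adjusted p = 0.00871). CDC20, an activator of that complex, had 393, 351 and 395 CPM with doxycycline and 328, 324 and 334 CPM without (log2 fold change 0.21 ± 0.05, adjusted p = 0.00884), and CDK1 and PLK1 had log2 fold changes of 0.19 and 0.17. Among 42 DNA replication genes RRM2, a ribonucleotide reductase subunit, rose (log2 fold change 0.20 ± 0.05, adjusted p = 0.00924) and LIG1, the replicative DNA ligase, fell (log2 fold change -0.16 ± 0.05, adjusted p = 0.0457). At 48 h 41 of the 42 were higher, against 19% of all genes tested. Of 26 p53 targets only TIGAR was called, with 21.4, 18.96 and 21.8 CPM with doxycycline and 18.4, 17.8 and 18.3 CPM without (log2 fold change 0.19 ± 0.05, adjusted p = 0.0255) and 45.6% of its exonic length shared with other genes. Histone genes with polyadenylated messages had 3 rises (H2AC18, H2AX and H2BC5) and 1 fall among 19.

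Apoptosis and signalling kinase genes held mostly small rises. Of 29 genes of the BCL2 family and death receptors 5 rose and 1 fell (17.2% and 3.45%, against 3.89% and 3.63% of all genes tested). BCL2L1, which encodes the survival protein BCL-XL, had 123, 119 and 127 CPM with doxycycline and 108, 103 and 103 CPM without (log2 fold change 0.24 ± 0.05, adjusted p = 0.00106), with 43.0% of its exonic length shared with other genes, and BIRC2 had 75.7, 71.6 and 73.3 CPM with doxycycline and 67.1, 64.5 and 64.7 CPM without (log2 fold change 0.17 ± 0.04, adjusted p = 0.0141). BIRC5 had a log2 fold change of 0.22, and BCL2L2 fell by 0.29 on the log2 scale. Of 15 phosphoinositide kinase genes 5 rose (33.3%) and PIK3C2B fell. Apart from PIK3CG these included PIK3CA (0.16) and PIK3CB (0.17), which encode catalytic subunits. The list held 2 rises with a GC offset and 1 with only the 6 libraries fitted. It includes PIK3CG, the largest of the rises above, and was chosen with earlier results of these data known, so its share is a description only.

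Adhesion and matrix genes went both ways. ITGB4, the integrin of hemidesmosomes, had 98.9, 110.0 and 108 CPM with doxycycline and 146, 153 and 149 CPM without (log2 fold change -0.50 ± 0.07, adjusted p = 3.83e-06), while its partner ITGA6 had 41.7, 41.9 and 45.1 CPM with doxycycline and 37.3, 33.8 and 36.6 CPM without (log2 fold change 0.26 ± 0.06, adjusted p = 0.006400). The doxycycline libraries were all lower for ITGB4 and all higher for ITGA6. Of 38 matrix and protease genes 4 rose and 4 fell (10.5% each way, against 3.89% and 3.63% of all genes tested). Fibrillar and beaded-filament collagens were the falls: COL6A2 had 65.2, 72.1 and 64.7 CPM with doxycycline and 87.9, 88.3 and 80.1 CPM without (log2 fold change -0.34 ± 0.06, adjusted p = 0.0001696), COL6A1 averaged 89.0 ± 3.09 CPM with doxycycline and 109 ± 4.48 CPM without, COL1A2 had 180.4, 189 and 205 CPM with doxycycline and 223, 224 and 218 CPM without (log2 fold change -0.21 ± 0.05, adjusted p = 0.00857). COL3A1 had 10.99, 10.8 and 12.1 CPM with doxycycline and 13.9, 14.1 and 12.9 CPM without (log2 fold change -0.27 ± 0.08, adjusted p = 0.0413). The summed level of the 9 fibroblast markers, mostly COL1A2, was 192 to 218 CPM with doxycycline and 231 to 239 CPM without, with DCN, LUM, FAP and THY1 at no more than 1 count in any library. COL17A1, a collagen of hemidesmosomes, rose, with 168, 158 and 169 CPM with doxycycline and 146, 143 and 136 CPM without (log2 fold change 0.22 ± 0.04, adjusted p = 0.0002599), and so did PLAUR, the urokinase receptor, with 29.4, 28.7 and 30.3 CPM with doxycycline and 24.8, 23.3 and 24.8 CPM without (log2 fold change 0.28 ± 0.05, adjusted p = 0.000588).

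Neuronal and synaptic genes, several of which epithelial cancer cells express, had 6 falls and 1 rise among 19 (median -0.07). These were 31.6% and 5.26% of the list, against 3.63% and 3.89% of all genes tested. ANK3, the first of the largest falls above, is in this list and is 1 of the 6. The list was chosen with earlier results of these data known, so its share is a description only. SYT1, a calcium sensor of vesicle fusion, had 6.74, 7.29 and 7.03 CPM with doxycycline and 11.9, 11.3 and 11.7 CPM without (log2 fold change -0.73 ± 0.08, adjusted p = 3.79e-08). NRP2, a co-receptor for semaphorins and VEGF, had 4.53, 4.04 and 4.28 CPM with doxycycline and 5.97, 5.76 and 6.13 CPM without (log2 fold change -0.48 ± 0.10, adjusted p = 0.00239). NRP1 averaged 1.86 ± 0.311 CPM with doxycycline and 2.43 ± 0.0955 CPM without. NLGN3 averaged 2.19 ± 0.389 CPM with doxycycline and 3.44 ± 0.195 CPM without and NLGN2 averaged 78.1 ± 6.25 CPM with doxycycline and 90.1 ± 3.37 CPM without, both of them neuroligins. SEMA3C, a secreted semaphorin, was the rise (log2 fold change 0.18 ± 0.04, adjusted p = 0.00893).

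Smaller sets were called in other lists, while 3.89% of all genes tested rose and 3.63% fell. Rises took 11.8% of the glycolysis and hypoxia genes and 11.1% of the autophagy and lysosome genes. Among all genes of at least 100 CPM 10.7% rose, and among those of 10 to 100 CPM 5.95%. The lists were not matched for level. Falls took 13.6% of the small nucleolar RNA host genes. Glycolysis and hypoxia genes had 4 rises and 0 falls among 34 (13 and 1 at an unadjusted p under 0.05, 5 and 0 by DESeq2), with HK2, the first enzyme of glycolysis, at 74.4, 70.7 and 71.5 CPM with doxycycline and 63.1, 58.9 and 63.9 CPM without (log2 fold change 0.22 ± 0.06, adjusted p = 0.0145) and ADM, adrenomedullin, at 7.69, 5.97 and 7.03 CPM with doxycycline and 5.67, 4.56 and 5.26 CPM without (log2 fold change 0.41 ± 0.08, adjusted p = 0.00163). EGLN1, an oxygen-sensing hydroxylase, had 66.5, 63.3 and 68.9 CPM with doxycycline and 53.5, 53.7 and 58.5 CPM without (log2 fold change 0.26 ± 0.05, adjusted p = 0.000342). These genes were higher in every doxycycline library, and the count ranged from 2 to 10 when single libraries were left out. Autophagy and lysosome genes had 4 rises among 36, led by CTSL, a lysosomal protease, at 194, 192 and 204 CPM with doxycycline and 172, 170.2 and 160.4 CPM without (log2 fold change 0.23 ± 0.05, adjusted p = 0.00159). Small nucleolar RNA host genes had 3 falls among 22, SNHG11 (-0.34), SNHG12 (-0.54) and EPB41L4A-AS1 (-0.27). Their falls numbered 6 by DESeq2 and under upper quartile factors, 1 with only the 6 libraries fitted, and 0 to 5 when single libraries were left out. Among 45 genes of ribosome rescue and message decay, ABCE1, which splits ribosomes, and MAP3K20, which senses collided ribosomes, rose by log2 fold changes of 0.14 and 0.15, and UPF3A, of nonsense-mediated decay, fell (-0.25). The shares of that list, 4.44% up and 2.22% down, were near those over all genes tested.
The metallothionein MT1G had 0.345, 0.1996 and 0.276 CPM with doxycycline and 0.508, 0.792 and 0.613 CPM without (log2 fold change -1.20 ± 0.22, adjusted p = 0.000408). TAP1, the peptide transporter of antigen presentation, had 43.9, 45.1 and 49.6 CPM with doxycycline and 38.9, 38.2 and 40.6 CPM without (log2 fold change 0.24 ± 0.05, adjusted p = 0.00631). INSIG1, which holds back cholesterol synthesis, had 93.5, 90.6 and 95.4 CPM with doxycycline and 84.2, 82.7 and 86.8 CPM without (log2 fold change 0.14 ± 0.04, adjusted p = 0.0171). The MT1G libraries with doxycycline were the lower ones, and those of TAP1 and INSIG1 the higher ones. Of 16 TGF-beta target genes SKIL (0.19) and TGFBR1 (0.23) rose and ID2 (-0.24) fell. NSDHL of cholesterol synthesis (0.16) and ELOVL6 of fatty acid synthesis (0.19) rose.

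The same line at 48 h did not share most of this pattern. Of the 1561 genes, 317 were called in the same direction at 48 h and 484 in the opposite one (20.3% and 31.0% of the 1561, and 4.36% and 6.65% of the 7278 genes called at 48 h). Among the 808 rises 166 were higher and 293 lower at 48 h, and among the 753 falls 151 were lower and 191 higher, when 19% of all genes were higher and 16% lower. The difference between the responses passed the test for 975 of the 1561 genes and for 26.5% of all genes. The labels name no run or batch for the libraries of the 2 times, but they number the 48 h and the 96 h libraries in separate blocks. Time and any batch therefore cannot be told apart. CLDN1 had a log2 change of -1.68 at 48 h, IL1B of -1.55, MAP1B of -1.15 and ROBO4 of -1.11, each against a rise at 96 h. PEG10 had 0.83 at 48 h, KRT15 0.50, ANK3 0.31 and MT1G 1.82, each against a fall at 96 h. APLN, by contrast, rose at both times, by a log2 change of 1.97 at 48 h.

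**Figure D5:**
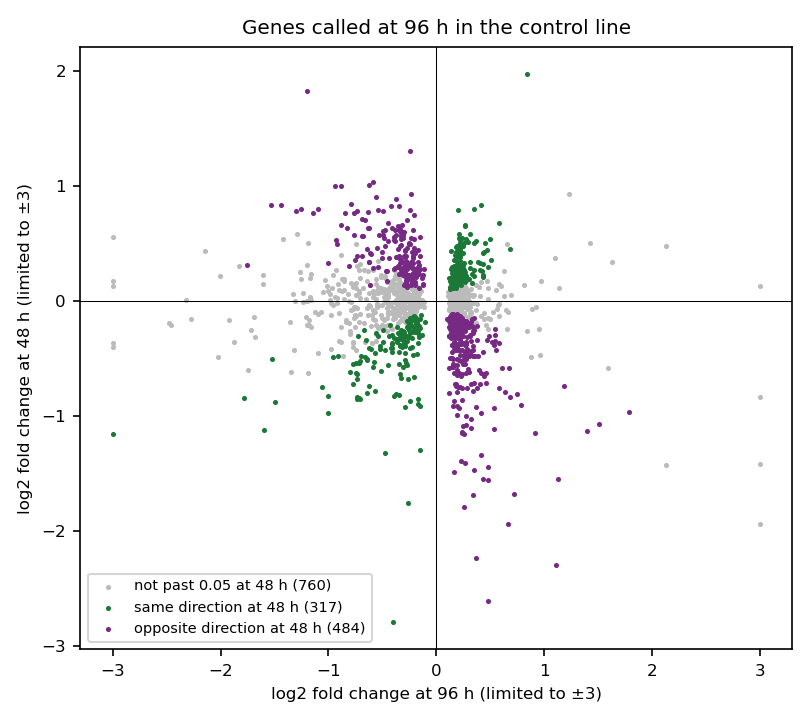
Log2 fold change with doxycycline over none in the control line at 96 h (horizontal) and 48 h (vertical) for the 1561 genes called at 96 h, both limited to ±3. Colours separate the 317 genes called in the same direction at 48 h, the 484 called in the opposite direction and the rest.

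The lines with other guides share no libraries with the control line and give separate values of each gene at 96 h. In the PELO line, where 66.8% of all genes were called, 1106 of the 1561 genes were called in the same direction and 210 in the opposite one (70.9% and 13.5% of the 1561, 7.97% and 1.51% of the 13874 called in that line). Of the 808 rises 76.4% were higher there, against 34.4% of all genes, and of the 753 falls 64.9% were lower, against 32.5%. In the HBS1L line, where 19.9% of all genes were called, 405 were called in the same direction and 129 in the opposite one (25.9% and 8.26% of the 1561, 9.82% and 3.13% of 4124). Of the rises 26.5% were higher there, against 11% of all genes, and of the falls 25.4% were lower, against 8.90%. CLDN1 changed by 2.11 in the PELO line and 0.16 in the HBS1L line on the log2 scale, ANK3 by -3.33 and -0.83, and TCF7 by -1.69 and -0.70. KLK6 changed by -1.58 in the PELO line, while its log2 change of 0.10 in the HBS1L line did not pass the test. PIK3CG, the largest rise here, had 0.10 in the PELO line (adjusted p = 0.618) and fell by 0.57 in the HBS1L line (adjusted p = 0.00782), and both differed from the control line (adjusted p = 8.68e-05 and 2.76e-07, in tests that called 54.8% and 10.7% of all genes).

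Only 13 genes changed in the same direction in all 6 comparisons of doxycycline with none (3 lines at 2 times, of which the PELO and HBS1L lines at 48 h had 48.0% and 21.5% of all genes called), 9 of them higher and 4 lower. BMP6, a bone morphogenetic protein, had 3.26, 3.03 and 3.14 CPM with doxycycline and 2.02, 2.02 and 2.28 CPM without in the control line at 96 h (log2 fold change 0.58 ± 0.10, adjusted p = 0.000146). EIF5, which prompts GTP hydrolysis at the start codon, had 429, 402 and 419 CPM with doxycycline and 363, 341 and 359 CPM without (log2 fold change 0.23 ± 0.04, adjusted p = 0.000244). UCA1, a long noncoding RNA, had 99.7, 99.2 and 105 CPM with doxycycline and 85.8, 87.9 and 88.3 CPM without (log2 fold change 0.21 ± 0.04, adjusted p = 0.000486). The groups were apart for all 3, and these genes rose by log2 changes of 0.68, 0.48 and 0.30 at 48 h. ABRACL, CDC20, KPNA2, FAM83D and ENSG00000273782 were among the other rises. LIPG, an endothelial lipase, had 5.11, 5.16 and 5.07 CPM with doxycycline and 6.92, 6.73 and 7.05 CPM without (log2 fold change -0.43 ± 0.08, adjusted p = 0.000584). CREB3L3, PSG4 and ENSG00000260563 were the other falls. Each of the calls of ABRACL, CREB3L3, PSG4 and ENSG00000260563 at 96 h was lost when only the 6 libraries were fitted.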

How the data were processed

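Polyadenylated RNA was sequenced in 36 libraries, 3 per group, prepared with the NEB Ultra II kit per the labels' protocols. The submitters' processing notes name DRAGEN, featureCounts, Subread, edgeR, limma and the build GRCh38.p13; no source used here gives their order, options or versions. The authors deposited expected counts per Ensembl gene, 45.6% of whose positive values are not whole, and a second table of log2 CPM that lists 17138 genes, used here only as an alternative. Counting by strand is not stated, so reads of genes that overlap cannot be told apart.

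Expected counts were rounded, and edgeR 4.0.16 was run under R 4.3.3 (filterByExpr at 10 counts per library and 15 in total, TMM factors, quasi-likelihood F test, 1 mean per group over all 36 libraries, Benjamini-Hochberg adjustment over 20767 genes at 0.05). CPM use TMM-scaled library sizes, fold changes are doxycycline over none, and ± after a log2 fold change is the SE and after a level the SD of 3 libraries. DESeq2 1.42.0 and limma 3.58.1 served as alternatives. The fit was tested on simulated counts with known changes. Positions, overlaps and GC content came from GENCODE on GRCh38, with a GC value for 96.9% of the genes tested. Symbols were found for 99.8% of the identifiers.

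The 33 pathway and 6 marker lists and the genes compared were chosen with earlier results of these data known. Named genes were PELO and HBS1L, the 12 largest rises and falls of at least 1 CPM with groups that do not overlap, the 5 of smallest adjusted p each way, up to 3 called genes per list, and up to 6 each of those changed the same way in all 6 comparisons or oppositely at 48 h. Replicate numbers were not used to pair libraries. The results of a few genes are not reported here.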

Additional observations from a re-analysis of the deposited data

Results flagged for a closer look

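The response of the control line to doxycycline differed between the times for 5496 genes (26.5% of those tested), by edgeR's quasi-likelihood test of the 96 h response minus the 48 h response. The named genes among them that were called at both times in opposite directions, and not named through a gene list alone, are given here with the log2 response at 96 h minus that at 48 h. The genes that rose at 96 h and fell at 48 h were PIK3CG (1.93), IL1B (2.68), MAP1B (2.06), AFF3 (1.70), IGFBP1 (1.56), CLDN1 (2.40), FAM241A (1.51), VEPH1 (0.79) and ROBO4 (1.64). The genes that fell at 96 h and rose at 48 h were ANK3 (-2.07), PEG10 (-2.37), ENSG00000287864 (-2.28), TCF7 (-0.75), KRT15 (-1.42) and FER1L4 (-1.46). Some of them were chosen for that opposite call and the rest for their change at 96 h, so their number says nothing about how often the times differ. Their groups at 96 h did not overlap, which the choice required for those named among the largest rises and falls. Time cannot be told apart from any difference between the 2 sets of libraries.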

How the results depend on the processing

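The number of calls, 1561, changed with several choices. With only the 6 libraries fitted, 618 genes were called (306 higher, 312 lower, 52 past 2-fold), of which 119 changed the same way and 251 the opposite way at 48 h and 8 the same way in all 6 comparisons. At an adjusted p of 0.01 these numbers were 542, 298, 244, 42, 83, 204 and 4. Upper quartile factors gave 490 higher and 1009 lower, the largest shift of the split among these alternatives. The count past 2-fold was 41 with a filter of at least 1 CPM in 3 libraries, 37 with DESeq2 and 58 with limma on the deposited log2 table. Leaving out single libraries gave 491 to 2100 calls, 258 to 997 higher, 233 to 1103 lower, 51 to 128 past 2-fold, 81 to 446 the same way and 215 to 566 the opposite way at 48 h, and 4 to 18 in all 6 comparisons. The cause of these shifts was not tested.

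Deviations of same-numbered libraries correlated at 0.03, 0.04 and 0.096, and not every library correlated best with its own number. Whether the numbers mark a pairing was not tested. A replicate block in all lines and times gave 1393 calls, 1257 of them among the 1561, and the block with only the 6 libraries gave 3117 (1568 higher, 1549 lower), with 669 the same way at 48 h and 28 in all 6 comparisons. The GC offset together with the block, both chosen after seeing the data as a pair, left 8 genes in all 6 comparisons. Of 116 named genes that were called, 57 lost the call under at least 1 of 18 alternatives and 0 changed sign. The other 59 kept it, of which 46 had a value in all 18 and 13 had none in the deposited log2 table. Low counts limit genes under 1 CPM, where 3 counts or fewer in a group cannot give a fold change. With only the 6 libraries fitted, the lists' rises numbered 5 for NF-kB, 4 for NRF2, 4 for YAP and TEAD, 4 for mitosis, 3 for RAS-MAPK, 3 for heat shock, 2 for the BCL2 family, 2 for glycolysis and 2 for autophagy genes, and 0 for mitochondrial ribosomal, histone and immediate early genes. The falls numbered 4 for neuronal, 4 for matrix and 0 for integrated stress response genes.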

Other observations

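Several genes named for other cell types were expressed in this line and are given as values. CD14, a receptor for bacterial lipopolysaccharide on monocytes, had 2.49, 3.49 and 3.83 CPM with doxycycline and 4.44, 5.39 and 4.98 CPM without (log2 fold change -0.59 ± 0.13, adjusted p = 0.00302). CD68, a lysosomal glycoprotein of macrophages, was higher, at 24.6 ± 1.34 CPM with doxycycline and 22.1 ± 1.13 CPM without (log2 fold change 0.15 ± 0.05, adjusted p = 0.0348), with 85.8% of its exonic length shared with other genes. CDH5, the cadherin of endothelial junctions, had 857, 1218 and 1114 counts with doxycycline and 1026, 867 and 967 without, and did not pass the test. SYP, a synaptic vesicle protein, had 740, 866 and 819 counts with doxycycline and 900, 804 and 860 without. CD14 was lower in every doxycycline library, while the groups of CDH5 and SYP overlapped. The leukocyte genes PTPRC and CD3E and the endothelial genes PECAM1 and KDR had at most 2 counts in any of the 6 libraries. Other members of the same marker lists were expressed. EMCN, an endothelial marker, had 152, 124 and 132 counts with doxycycline and 126, 106 and 133 without. ITGAM, a leukocyte marker, had 42, 49 and 39 counts with doxycycline and 28, 30 and 35 without.

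EPGN, a ligand of the EGF receptor picked here after its values were seen, averaged 0.853 ± 0.0579 CPM with doxycycline and 0.243 ± 0.0439 CPM without (log2 fold change 1.78 ± 0.22, adjusted p = 1.59e-06), and it had 49, 48 and 53 counts with doxycycline against 18, 10 and 14 without. At 48 h it had a log2 change of -0.96 (adjusted p = 0.000984). IL1A, the neighbour of IL1B on chromosome 2, had 4, 4 and 10 counts with doxycycline and 8, 1 and 1 without, too few to show a difference.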
